A study of Mus musculus with 22 samples.

Results

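The 9 genes described here, out of 55414 in the count table, encode receptors and ligands of the interleukin-1 (IL-1) family and of type 2 immunity. They are the rows whose Ensembl identifier carries the mouse symbol Il1r1, Il1rap, Il1rl1, Il1rn, Il33, Tslp, Il4ra, Il13ra1 or Il13ra2. RNA was sequenced in bulk from fibroblasts sorted from mouse back skin on day 1, 2 or 4 after an operation. EXP mice received an expander, a hydrogel placed beneath the skin near the neck and stitched in place, and CTRL mice had the operation but no expander. Each comparison is thus between 2 groups with a surgical wound. Day 1 held 4 CTRL and 5 EXP libraries, day 2 held 3 of each, and day 4 held 4 CTRL and 3 EXP. The labels give no strain, age or genotype. They do not say that each library came from a separate mouse, so p-values measure only the spread between these libraries.

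In IL-1 signalling, IL-1α or IL-1β binds the receptor IL1R1, which recruits the accessory chain IL1RAP and signals through MYD88 to NF-κB. Il1rn encodes the receptor antagonist, and the decoy receptor IL1R2 binds IL-1 without signalling. IL-33, an alarmin stored in the nucleus and released by damaged cells, uses the same accessory chain with the receptor ST2, the product of Il1rl1. TSLP is an epithelial and stromal alarmin that acts on dendritic cells and innate lymphoid cells. IL-4 and IL-13 signal through IL4RA paired with IL13RA1 or the common γ chain, and IL13RA2 is a high-affinity IL-13 receptor usually regarded as a decoy. Fibroblasts carry IL-1 receptors and IL-4/IL-13 receptors, and skin wounds engage both systems.

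Libraries held 21461294 to 30210204 counts, and 3 counts were taken as the smallest detectable level. Such limits cover counting error only. The sort genes followed the gate in all 22 libraries. Pdgfra ran from 227 to 1022 CPM (the usual scaling of counts by library size, here TMM-adjusted) and Cd34 from 216 to 2346 CPM. The arms differed in both sort genes. Cd34 was at 1274 to 1544 CPM in CTRL and 262 to 778 in EXP on day 1, and at 1677 to 2086 against 216 to 665 on day 2. Pdgfra was at 319.5 to 413 CPM in CTRL and 465 to 702 in EXP on day 1, and at 227 to 258 against 464 to 1022 on day 2. On day 4 the arms overlapped in both. The 10 fibroblast markers together summed lower in EXP without overlap on days 1 and 2, at 94400 to 171617 against 211396 to 284742 CPM and at 69109 to 171926 against 329226 to 409264 CPM, with 5 and 6 called lower and 1 higher on each day. Their part in the results was not tested. Pecam1 stayed at or below 3.68 CPM, Epcam at or below 2.09, Kit at or below 0.698 and Ptprc at or below 0.243. A set of 192 genes, chosen after group means were removed, split the libraries apart from the groups. Its high side held CTRL replicates 1 to 3 and EXP replicates 1 and 2 of day 1, and CTRL replicates 3 and 4 of day 4. The labels name no batch behind it.

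Expander fibroblasts carried far more Il33 and Il1rl1 RNA than operated controls, with smaller rises of Il1r1 and Il13ra1, and Tslp and Il13ra2 joined on day 4. At an adjusted p under 0.05 (edgeR quasi-likelihood test, adjusted over 17554 genes), 4 of the 9 genes were higher in EXP on day 1, 4 on day 2 and 5 on day 4. The share of all tested genes called in either direction was 28.6% on day 1, 13.4% on day 2 and 22.5% on day 4. For calls higher in EXP it was 13.9%, 7.72% and 12.8%. For calls lower in EXP it was 14.7%, 5.71% and 9.66%, and 1 of the 9, Il1rap, was lower, on day 4. Il33, Il1rl1 and Il1r1 were called higher on all 3 days with all libraries kept, which held for 2.5% of tested genes. Only Il33 kept every call when single libraries were left out. The day 1 call of Il1rl1 was lost in 6 of 9 omissions, and the day 4 call of Il1r1 in 2 of 7. The median log2 fold change of the 9 genes was 1.03, 2.01 and 2.30 on days 1, 2 and 4, against 0.02, 0.02 and 0.03 over all tested genes. Without Il1rn, which was near the detection limit, the medians were 1.05, 1.75 and 2.26. With Il13ra2 also left out, the middle values were 1.08 (Tslp), 1.50 (Il1r1) and 0.85 (Il1r1). All 9 passed the filter on low counts, but Il1rn reached 10 counts in only 4 libraries, 3 of them the day 4 EXP libraries, and Il13ra2 in 8, of which 7 were EXP. Those 2 genes therefore entered the test largely through the group where they were high. In bulk RNA, a change in the share of cells that express a gene and a change in RNA per cell cannot be told apart.

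**Figure D1:**
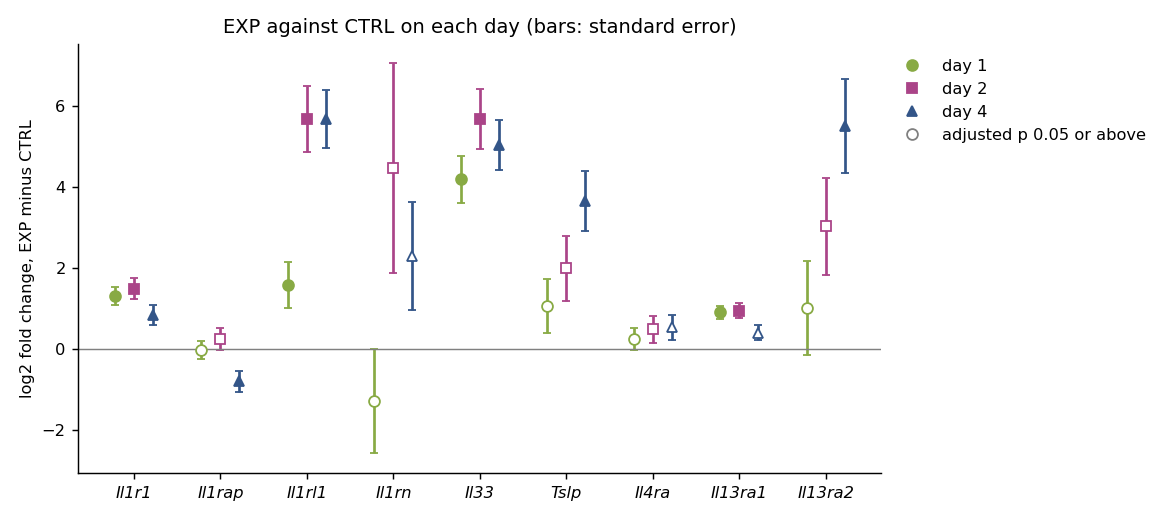
Log2 fold change of EXP against CTRL (vertical axis) for each of the 9 genes on days 1, 2 and 4, with bars of 1 standard error and open symbols for an adjusted p of 0.05 or above. Il33 and Il1rl1 lie highest among the filled symbols of day 2, Il13ra2 reaches 5.51 on day 4, and Il1rap is the filled symbol below 0.

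The promoters of Il33, Il1rl1 and Il1r1 are shown because each has a pair of start sites in RefSeq. These 3 genes were also called higher in EXP on all 3 days with all libraries kept. Each window runs from 250 bases before to 50 bases after the start site, 5′ to 3′, with GRCm38.p6 coordinates, which is not the build that was counted. Capitals mark matches on either strand to 4 motifs: GGG and TTTCC with 2 bases between (NF-κB), TGANTCA (AP-1), TTC and GAA with 4 bases between (STAT6), and GGAATG (TEAD, the DNA-binding partners of the stretch-responsive factor YAP).
Il33 start 1, chr19:29924863-29925162, plus strand: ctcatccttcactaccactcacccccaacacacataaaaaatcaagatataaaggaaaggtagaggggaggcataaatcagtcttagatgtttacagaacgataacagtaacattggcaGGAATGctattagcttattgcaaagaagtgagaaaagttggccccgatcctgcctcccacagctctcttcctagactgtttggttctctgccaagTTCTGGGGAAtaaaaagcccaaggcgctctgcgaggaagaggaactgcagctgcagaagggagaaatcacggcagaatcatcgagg
Il33 start 2, chr19:29945540-29945839, plus strand: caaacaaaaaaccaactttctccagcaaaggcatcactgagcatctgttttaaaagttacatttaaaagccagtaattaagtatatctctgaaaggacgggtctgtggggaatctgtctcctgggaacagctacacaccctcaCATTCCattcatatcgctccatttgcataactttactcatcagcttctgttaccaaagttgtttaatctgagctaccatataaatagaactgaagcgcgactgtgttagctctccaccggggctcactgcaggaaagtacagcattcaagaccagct
Il1rl1 start 1, chr1:40429320-40429619, plus strand: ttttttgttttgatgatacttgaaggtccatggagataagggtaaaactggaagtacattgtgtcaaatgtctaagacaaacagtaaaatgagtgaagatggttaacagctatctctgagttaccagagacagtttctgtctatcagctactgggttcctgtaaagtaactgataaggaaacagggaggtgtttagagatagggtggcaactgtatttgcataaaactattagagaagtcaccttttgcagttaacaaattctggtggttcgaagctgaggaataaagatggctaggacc
Il1rl1 start 2, chr1:40439379-40439678, plus strand: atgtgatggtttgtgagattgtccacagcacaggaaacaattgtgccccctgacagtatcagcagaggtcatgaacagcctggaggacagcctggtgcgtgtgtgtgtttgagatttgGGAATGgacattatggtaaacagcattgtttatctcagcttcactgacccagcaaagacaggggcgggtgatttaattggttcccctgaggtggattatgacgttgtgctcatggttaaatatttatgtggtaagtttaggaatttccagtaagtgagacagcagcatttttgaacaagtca
Il1r1 start 1, chr1:40224830-40225129, plus strand: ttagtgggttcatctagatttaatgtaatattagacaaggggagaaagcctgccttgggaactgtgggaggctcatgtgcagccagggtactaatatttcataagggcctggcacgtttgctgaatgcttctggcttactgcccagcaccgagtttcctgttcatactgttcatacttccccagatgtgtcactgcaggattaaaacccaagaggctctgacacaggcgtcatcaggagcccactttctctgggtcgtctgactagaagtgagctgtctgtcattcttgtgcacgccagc
Il1r1 start 2, chr1:40266336-40266635, plus strand: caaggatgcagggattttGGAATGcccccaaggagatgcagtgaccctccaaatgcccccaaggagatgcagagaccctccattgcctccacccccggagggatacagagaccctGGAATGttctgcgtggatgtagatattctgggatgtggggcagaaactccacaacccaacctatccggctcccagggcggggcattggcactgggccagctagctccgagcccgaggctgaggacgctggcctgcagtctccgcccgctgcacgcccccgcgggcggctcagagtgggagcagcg

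The hexamer GGAATG was in both Il33 windows, in the second Il1rl1 window and 2 times in the second Il1r1 window. It was in 14.7% of the 32851 RefSeq windows of 300 bases that were searched, which left out 1 chromosome. The first Il33 window also held TTCTGGGGAA, a match to the STAT6 letters, which were found in 6.95% of windows, and no match overlapped another. NF-κB letters, in 1.63% of windows, and AP-1 letters, in 7.81%, were in none of the 6 windows, which says only that these letters were not there. Of the other genes, 5 had windows among those searched. Tslp had none there, which does not say that RefSeq lacks a start site for it. Il13ra2 held GGAATG and TGACTCA, Il1rn held matches to all 4 motifs over its 3 windows, Il4ra held 1 NF-κB match, and Il1rap and Il13ra1 held none. The first Il1rl1 start is the distal one, known from mast cells and lymphoid cells, and the second is the proximal one, known from fibroblasts. Counts per gene do not separate the starts, nor the soluble from the membrane-bound form of ST2.

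Il33 encodes the ligand, and its arms were apart on every day. On day 1 it stood at 14.3, 22.3, 46.5 and 27.3 CPM in CTRL libraries and at 308, 1377, 371, 236 and 245 CPM in EXP. On day 2 it stood at 8.41, 5.48 and 9.39 CPM in CTRL and at 515, 339 and 353 CPM in EXP. On day 4 the CTRL values were 12.0, 12.1, 15.3 and 31.9 CPM and the EXP values 708, 769 and 299 CPM. The lowest EXP library of the experiment lay above the highest CTRL library. Every EXP library exceeded every CTRL library of its day for 11.7% of tested genes on day 1, 20.9% on day 2 and 13.8% on day 4. The fold change of Il33 was 18.4 on day 1 (95% interval 7.87 to 42.9, adjusted p = 5.20e-05). It was 51.8 on day 2 (17.7 to 152, adjusted p = 1.31e-04) and 33.2 on day 4 (13.3 to 83.1, adjusted p = 1.29e-04). EXP replicate 2 of day 1 was the highest of all, and without it the day 1 log2 fold change was 3.39 in place of 4.20. Within the high side of the library split on day 1 (3 CTRL, 2 EXP) it was 4.93. The EXP effect on Il33 did not pass the test for a difference between days with all libraries kept (adjusted p = 0.393). Without EXP replicate 2 of day 1 it passed the same edgeR test (adjusted p = 0.0259). EXP levels over days gave an adjusted p of 0.803, and CTRL levels an adjusted p of 0.279.

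Keratinocytes and endothelial cells are known skin sources of IL-33, so their markers are given beside it. The summed level of 10 keratinocyte markers was 8.09 to 54.4 CPM in CTRL and 2.65 to 19.5 CPM in EXP on day 1. It was 5.82 to 41.4 against 5.08 to 6.60 CPM on day 2, and 7.37 to 31.6 against 3.81 to 26.1 CPM on day 4. Of the 10 keratinocyte markers, 0 were called higher in EXP on any day by edgeR (0 also at an unadjusted p under 0.05), 1 was called lower on day 1, and Cdh1 and Dsp were at 0 in every EXP library of day 2. The sum of 8 endothelial markers was 24.3 to 56.4 CPM in day 4 EXP against 4.59 to 12.1 CPM in day 4 CTRL, with 2 of 7 tested markers called higher. On day 1 it was 6.10 to 8.69 in CTRL and 1.20 to 8.76 CPM in EXP, with 0 of 7 called by edgeR (0 at an unadjusted p under 0.05). On day 2 it was 0.547 to 1.36 CPM in CTRL and 2.12 to 7.81 CPM in EXP, without overlap, with 1 of 7 called higher. The part of endothelial cells and keratinocytes in the level of Il33 was not tested on any day.

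**Figure D2:**
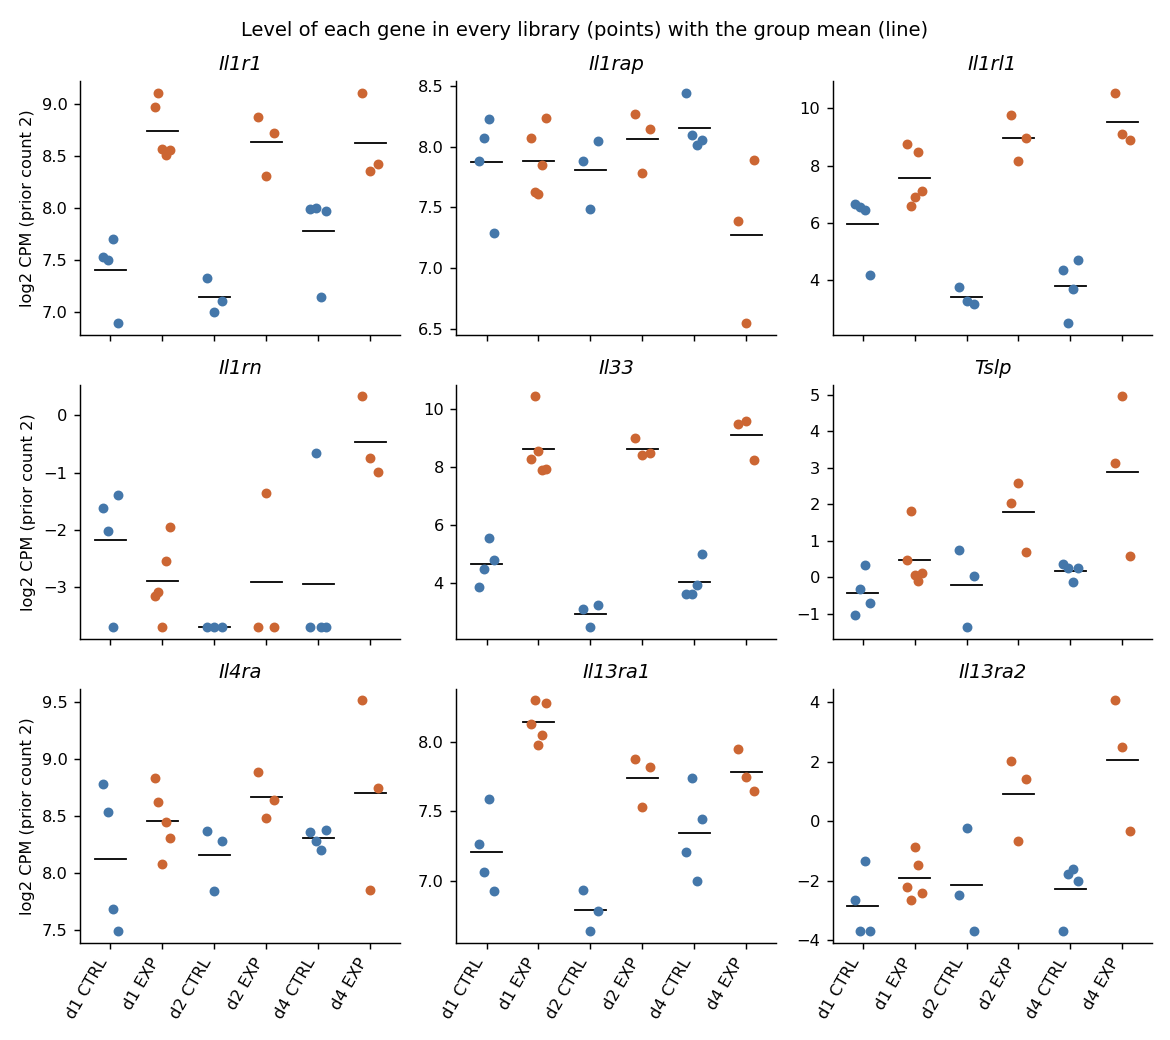
Level of each of the 9 genes in every library on a log2 CPM scale (prior count 2), by day (d1, d2, d4) and arm, with points for libraries (blue CTRL, orange EXP) and a line for the group mean. All EXP points of Il33 lie above all CTRL points, while the arms overlap for Il1rap on days 1 and 2 and for Il4ra on days 1 and 4.

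Tslp, the second alarmin, was scarce throughout. In CTRL it ran from 0.412 to 1.18 CPM on day 1, from 0.313 to 1.59 CPM on day 2 and from 0.838 to 1.21 CPM on day 4. The EXP libraries had 1.33, 3.43, 0.980, 0.859 and 1.02 CPM on day 1 and 4.06, 5.90 and 1.55 CPM on day 2. On day 4 they had 8.74, 30.8 and 1.43 CPM, and the arms did not overlap on that day alone. Its fold change was 12.7 on day 4 (95% interval 4.30 to 37.6, adjusted p = 0.00256). On day 1 the log2 fold change was 1.08 (SE 0.67, adjusted p = 0.239) and on day 2 it was 2.01 (SE 0.80, adjusted p = 0.101). Tslp changed over days among EXP libraries (adjusted p = 0.00801), and its effect did not pass the test for a difference between days (adjusted p = 0.184). Without EXP replicate 3 of day 4 its effect passed that edgeR test (adjusted p = 0.0285). The change over days was lost without EXP replicate 2 of day 4 (adjusted p = 0.145) and in the fit with a replicate block (0.201). EXP replicate 2 of day 4 held most of the signal: without it the day 4 log2 fold change was 2.23 in place of 3.67. The same replicate had the highest keratinocyte marker sum of its group (26.1 CPM, against 3.81 and 4.53 CPM) and the highest endothelial sum (56.4 CPM), and the part of these cells in its Tslp was not tested.

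Il1rl1 encodes ST2, the IL-33 receptor. On day 1 it stood at 101, 94.6, 88.2 and 18.1 CPM in CTRL and at 432, 95.9, 121, 357 and 138 CPM in EXP. On day 2 CTRL libraries had 13.5, 9.55 and 9.07 CPM and EXP libraries 869, 287 and 500.3 CPM. On day 4 CTRL libraries had 20.3, 5.62, 13.0 and 26.1 CPM and EXP libraries 1499.9, 552 and 479 CPM. The arms overlapped on day 1, where EXP replicate 2 lay among the controls, and were far apart on days 2 and 4. The fold change was 3.03 on day 1 (95% interval 1.31 to 7.03, adjusted p = 0.0427), 51.5 on day 2 (15.4 to 172, adjusted p = 3.32e-04) and 51.9 on day 4 (18.0 to 149.7, adjusted p = 1.43e-04). By edgeR with all libraries kept, Il1rl1 was the only one of the 9 whose EXP effect differed between days (adjusted p = 0.00581), where 8.82% of tested genes passed. With the replicate number as a block this call was lost (adjusted p = 0.0590). Mean CTRL levels were 75.4 ± 38.6 CPM (SD, n = 4), 10.7 ± 2.45 (n = 3) and 16.3 ± 8.88 (n = 4) on days 1, 2 and 4. Mean EXP levels were 229 ± 154 (n = 5), 552 ± 295 (n = 3) and 844 ± 570 (n = 3). Neither arm passed the test over days on its own (adjusted p = 0.0680 in CTRL, 0.0788 in EXP). The day 1 call was lost when any of CTRL replicates 1 to 4 or EXP replicates 1 and 4 was left out, with log2 fold changes of 1.27 to 1.80 over the 9 omissions. It was also lost within the high side of the library split (1.48). On day 4 the log2 fold change was 4.99 without EXP replicate 1, in place of 5.70.

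Mast cells and type 2 lymphoid cells are the classical carriers of ST2. The 8 mast cell markers summed to 0 to 2.62 CPM over all libraries. In day 4 EXP the sum was 0.590 to 2.08 CPM, with Cpa3 and Mcpt4 at 0 and Hdc up to 1.70 CPM. Il1rl1 in the same libraries was 479 CPM or more, and the part of mast cells in it was not tested. The list for T cells and innate lymphoid cells summed to 187 to 234 CPM in day 4 EXP and 269 to 341 CPM in day 4 CTRL. It holds Thy1 and Rora, which fibroblasts also express and which make up most of the sum. Of its 5 tested genes, 2 were called higher on day 4 and 1 lower. Cd3e was at 28.9, 13.9 and 13.0 CPM in day 4 EXP and at 0.293 to 6.92 CPM in day 4 CTRL. Rora went the other way, at 77.1 to 149 against 174 to 213 CPM. The part of lymphoid cells in the level of Il1rl1 was not tested.

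**Figure D3:**
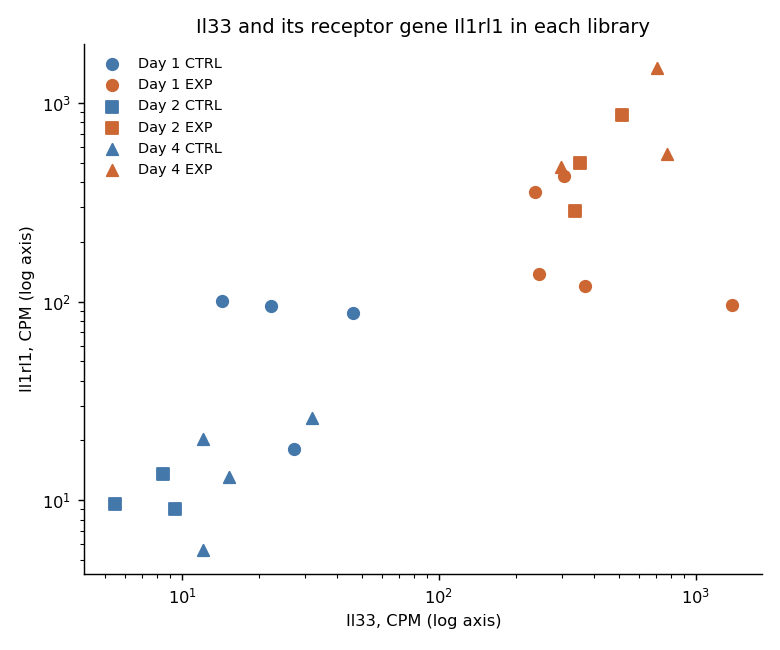
Il33 (horizontal, log axis) against Il1rl1 (vertical, log axis) in CPM for each of the 22 libraries, with colour for the arm and shape for the day. EXP libraries form the upper right group, and 3 day 1 CTRL libraries at 88.2 to 101 CPM of Il1rl1 stand above the other controls.

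Across the 22 libraries the log2 levels of ligand and receptor had a Pearson correlation of 0.86, over points that share the distance between the arms. After group means were removed it was -0.04. Single groups differed in this: in day 1 EXP the library with the most Il33 had the least Il1rl1, while in day 2 EXP and in day 4 CTRL 1 library was the highest in both. Per kilobase of exon, Il33 stood at 9.83 ± 13.9 times Il1rl1 in day 1 EXP (SD, n = 5), from 1.58 to 34.3 in single libraries. The ratio was 1.98 ± 0.75 (n = 3) in day 2 EXP and 1.98 ± 1.18 (n = 3) in day 4 EXP.

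Il1r1 encodes the signalling IL-1 receptor and was higher in EXP on each day. CTRL libraries had 185, 181, 209 and 119 CPM on day 1 and EXP libraries 503, 551, 379, 364 and 376 CPM. On day 2 the values were 160.3, 128 and 138 CPM in CTRL and 468, 318 and 422 CPM in EXP. On day 4 they were 255, 257, 142 and 251 CPM in CTRL and 552, 327 and 344 CPM in EXP. The arms were apart on all 3 days, by the least on day 4. The fold change was 2.50 on day 1 (95% interval 1.81 to 3.46, adjusted p = 1.89e-04), 2.83 on day 2 (1.92 to 4.18, adjusted p = 0.00106) and 1.80 on day 4 (1.27 to 2.57, adjusted p = 0.0160). The day 4 call was lost without CTRL replicate 3 (log2 fold change 0.68) or without EXP replicate 1 (0.57), against 0.85 with all libraries. It was also lost among the low-side libraries of the split (0.68).

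The shared accessory chain Il1rap did not follow its partner receptors. On days 1 and 2 its log2 fold changes were -0.01 (95% interval -0.49 to 0.47) and 0.26 (-0.33 to 0.84), and the day 1 value was 0.17 on library totals without TMM scaling. On day 4 it stood at 348, 274, 258 and 265 CPM in CTRL and at 168, 93.4 and 238 CPM in EXP. All 3 EXP libraries lay below all 4 controls, and the share of all tested genes that did so was not counted. Il1rap fell by 0.79 on the log2 scale (SE 0.26, adjusted p = 0.0377). That call was lost on library totals without TMM (-0.47) and when any day 4 library other than EXP replicate 3 was left out (log2 fold changes -1.13 to -0.52 over the 7 omissions). Its exons overlap those of Gm20319 on the opposite strand over 552 bases in GENCODE M21, and whether counting used strand is not given in the sources used here.

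Il1rn, the antagonist, was at the edge of detection. Its counts were 6, 4, 0 and 8 in day 1 CTRL and 0 to 5 in day 1 EXP. On day 2 all CTRL libraries had 0, and the EXP libraries had 0, 8 and 0. On day 4 CTRL had 0, 13, 0 and 0 and EXP had 44, 15 and 12. The day 4 EXP libraries were the only group in which every library passed 10 counts, yet no day passed the test (adjusted p = 0.488, 0.276 and 0.224). Without CTRL replicate 2, the control with 13 counts, day 4 passed it (adjusted p = 0.0212, the lowest of 7 omissions). The day 4 controls left then all had 0 counts, and only day 4 EXP libraries still reached 10. Il1rn thus entered that fit through the group where it was high, and the pass is no evidence of a rise.

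Of the IL-4 and IL-13 receptor genes, Il13ra1, the chain that makes the type II receptor with IL4RA, moved most evenly. On day 1 it had 153, 133, 192 and 121 CPM in CTRL and 280.1, 315, 252, 265 and 312 CPM in EXP. On day 2 it had 122, 99.4 and 110.1 CPM in CTRL and 235, 185 and 226 CPM in EXP. On day 4 it had 147, 213, 128 and 174 CPM in CTRL and 247, 215 and 200.3 CPM in EXP. The arms were apart on days 1 and 2 and overlapped on day 4. Il13ra1 rose 1.90-fold on day 1 (95% interval 1.50 to 2.41, adjusted p = 2.91e-04) and 1.95-fold on day 2 (1.46 to 2.59, adjusted p = 0.00317). On day 4 the ratio was 1.33 (1.02 to 1.73, adjusted p = 0.0987), and the difference between days did not pass the test (adjusted p = 0.250). Day 4 passed it without CTRL replicate 2 (log2 fold change 0.56) and on library totals without TMM (0.76), against 0.41.

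Il4ra, the signalling chain for both cytokines, was abundant and did not pass the test on any day. Its mean was 299 ± 127 CPM in CTRL (SD, n = 4) and 357 ± 71.4 in EXP (n = 5) on day 1, and 289 ± 53.2 (n = 3) and 409 ± 58.5 (n = 3) on day 2. On day 4 it was 316 ± 18.2 (n = 4) in CTRL and 463 ± 251 (n = 3) in EXP. Day 4 EXP spanned 231 to 730.1 CPM, below and above all controls of that day. The log2 fold changes were 0.26 (95% interval -0.32 to 0.84), 0.50 (-0.21 to 1.21) and 0.55 (-0.10 to 1.21), so a rise up to about 2.31-fold on day 4 lies within the interval. Library totals without TMM gave 0.96 on day 4 and passed the test. Il4ra shares 571 exon bases with Gm44876 on the opposite strand.

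Il13ra2 encodes the IL-13 decoy and was nearly absent from controls. CTRL libraries held 0 to 9 counts on day 1, 2, 15 and 0 counts on day 2, and 0, 5, 6 and 4 counts on day 4. EXP libraries held 2 to 13 counts on day 1, then 121, 14 and 69 counts on day 2 (3.99, 0.551 and 2.62 CPM). On day 4 they held 620, 160 and 20 counts (16.6, 5.55 and 0.714 CPM), all above the controls. The fold change on day 4 was 45.7 with a wide 95% interval of 8.31 to 251 (adjusted p = 0.00341). Il13ra2 reached 10 counts in 8 libraries, 7 of them EXP, so it entered the test largely through the arm where it was high. The log2 fold change was 3.04 on day 2, with a standard error of 1.20 and an adjusted p of 0.0986, and 1.03 on day 1, with a standard error of 1.16 and an adjusted p of 0.544. Within the high side of the library split the day 1 value was -0.32. Il13ra2 and Tslp were the only 2 of the 9 that changed over days among EXP libraries (adjusted p = 0.00672 for Il13ra2), where 14.3% of tested genes passed. Without EXP replicate 1 the day 4 log2 fold change of Il13ra2 was 4.23 in place of 5.51. With the replicate number as a block it was 4.70, and the call was lost (adjusted p = 0.0733, within 2.19e-05 to 0.0733 over the 10 alternative settings).

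Markers of mature adipocytes also stood high in day 4 EXP. Their sum over 6 genes was 4.08, 119 and 377 CPM in EXP replicates 1 to 3 of day 4 against 2.39 to 6.82 CPM in day 4 CTRL, with 4 of 5 tested markers higher. Il13ra2 was highest in replicate 1 and Tslp in replicate 2. The part of adipocyte RNA in these values was not tested. The fibroblast markers, apart between the arms on days 1 and 2, overlapped on day 4. They summed to 83895 to 280987 CPM in day 4 EXP and 268152 to 370303 CPM in day 4 CTRL, with 4 called lower and 1 higher.

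Among controls, 0 of the 9 genes passed edgeR's test over days, where 0.291% of all tested genes did. At an unadjusted p under 0.05 the number was 4 (Il1rl1, Il33, Il13ra1 and Il1r1), and DESeq2 and limma voom each called 1. In day 1 CTRL the order of mean CPM per kilobase of exon was Il4ra (49.8), Il13ra1 (40.4), Il1r1 (27.3), Il1rap (21.2), Il1rl1 (10.9) and Il33 (9.56), with Tslp at 0.535 and the last pair below it. Neighbours from Il4ra down to Il33 overlapped between libraries. In day 4 EXP the order opened with Il33 (205), Il1rl1 (122), Il4ra (77.1), Il1r1 (64.0) and Il13ra1 (59.5), again with each neighbouring pair overlapping. Below these came Il1rap (14.6), Tslp (10.3), Il13ra2 (3.35) and Il1rn (0.128), where Il13ra1 lay clear of Il1rap and Il13ra2 clear of Il1rn. Il33 was thus the sixth of the 9 genes in controls of day 1 and headed the order in all 3 EXP groups.

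The ligands for these receptors were mostly out of reach in the sorted cells. Il1a, encoding IL-1α, had 495 counts (13.3 CPM) in EXP replicate 1 of day 4 and at most 14 in any other library. The keratinocyte marker sum of that replicate, 3.81 CPM, was the lowest of its group. Il1b peaked at 12 counts, Il13, Il5 and Il9 had 0 counts in every library, and Il7r, the TSLP receptor's partner chain, peaked at 4. For a gene with 0 counts the limit per library is 3 counts. Il4 reached at most 21 counts. It fell by 2.94 on the log2 scale on day 4 (adjusted p = 0.0442), a call lost in 10 of 14 alternative settings. Crlf2, the TSLP receptor chain, had 3.13 to 6.11 CPM as group means and log2 fold changes of 0.63, 0.11 and 0.29 (adjusted p = 0.101, 0.871 and 0.545). The common γ chain Il2rg was at most 2.33 CPM in any library and was higher on day 4 (log2 fold change 3.12, adjusted p = 0.0246), a call lost in 8 of 17 alternative settings.

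Of the 3 other IL-1 family receptors tested, Il1r2 fell on days 2 and 4 and Il18r1 rose on day 4. Il1r2, the decoy, stood at 763 ± 195 CPM in CTRL (SD, n = 4) and 283 ± 161 in EXP (n = 5) on day 1 (log2 fold change -1.43, adjusted p = 0.0506). It fell by 2.39 on the log2 scale on day 2 (623 ± 58.3 against 119 ± 73.4 CPM, n = 3 each, adjusted p = 0.0256). On day 4 it fell by 1.97 (776 ± 411, n = 4, against 197 ± 156 CPM, n = 3, adjusted p = 0.0349). These calls were lost in 6 of 15 settings on day 2 and 8 of 17 on day 4, the direction in none. Per kilobase of exon, Il1r1 was 0.0581 to 0.0802 times Il1r2 in day 1 CTRL libraries and 0.301 to 0.732 times in day 1 EXP. On day 2 the ratio was 0.0600 to 0.0828 against 0.571 to 4.04, and on day 4 it was 0.0648 to 0.191 against 0.294 to 4.41. The lowest EXP library of each day thus lay above the highest CTRL library in this ratio. Il18r1, the IL-18 receptor, had 3, 3, 0 and 0 counts in day 4 CTRL and 229, 33 and 20 in day 4 EXP (adjusted p = 0.0117). That call was lost without EXP replicate 1. No CTRL library of any day held more than 5 counts of Il18r1, so it entered the test through EXP libraries, where it was high. On day 1, 0 of the 3 tested genes of the list were called (1 at an unadjusted p under 0.05).

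The list of 13 IL-1 receptor signalling genes includes Myd88. On day 1, 3 of the 13 were higher and 1 lower. On day 2, 0 passed (1 at an unadjusted p under 0.05), and on day 4, 3 were lower. Over all tested genes, 28.6%, 13.4% and 22.5% were called in either direction on these days. Those higher on day 1 were Traf6, Tollip and Map3k7, with log2 fold changes of 0.73, 0.64 and 0.70. These calls were lost in 6, 3 and 6 of 19 alternative settings, and over the settings 0 to 3 of the list were higher on day 1. Tab1, a TAK1-binding subunit, fell by 1.07 on day 1 (adjusted p = 0.00717). Peli1, an E3 ligase of IRAK proteins, fell by 3.12 on day 4 (adjusted p = 0.0139), and Myd88 itself fell by 0.65 (adjusted p = 0.0204). Both day 4 calls were lost without EXP replicate 1 or without EXP replicate 2. Peli1 stood at 19.7, 32.4, 169 and 181 CPM in day 4 CTRL and at 9.36 to 12.9 CPM in EXP, and the 2 high controls are the high-side libraries of the split. Its call was also lost among the low-side libraries, under voom and with day 4 alone, with log2 fold changes of -3.46 to -1.16 over 17 settings. Myd88 had log2 fold changes of -0.19 on day 1 and -0.57 on day 2 (adjusted p = 0.404 and 0.0677).

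Of 16 tested genes known to respond to IL-1 in fibroblasts, 11 were higher on day 1, 11 on day 2 and 9 on day 4, and 1 was lower on day 2 and 2 on day 4. The share of all tested genes called higher was 13.9%, 7.72% and 12.8% on these days. The median log2 fold change of the list was 2.44, 2.90 and 2.21. The list was chosen with earlier results of these data known, so its counts and medians do not test for a response to IL-1. Csf3, encoding the neutrophil growth factor G-CSF, went from 2.75 ± 1.88 CPM in CTRL (SD, n = 4) to 147 ± 131 in EXP (n = 5) on day 1. Lcn2, encoding the iron-binding lipocalin 2, went from 0.205 ± 0.136 to 58.2 ± 58.2 CPM on day 2 (n = 3 each), and Cxcl5, a neutrophil chemokine, from 6.45 ± 5.40 (n = 4) to 1273 ± 1750 CPM (n = 3) on day 4. Their log2 fold changes were 5.73, 8.08 and 7.62 (adjusted p = 2.05e-04, 0.00203 and 3.06e-04). Members that did not pass included Il6, with log2 fold changes of 0.62, 0.09 and 0.44, and Nfkbiz, with 0.11, -0.02 and -0.09. The NF-κB inhibitor Nfkbia fell by 0.68 on day 2 and by 0.69 on day 4, both calls being lost on library totals without TMM. The day 2 call was lost in 6 of 15 alternative settings, 5 of them omissions of a library, and the day 4 call in 4 of 17. Tnfaip3 fell by 1.04 on day 4, a call lost in 4 of 17 alternative settings. Over the alternative settings the number higher was 10 to 11 on days 1 and 2 and 7 to 10 on day 4. These genes are known to respond to other inflammatory signals too. Neutrophils also carry Lcn2, and 8 neutrophil markers summed to 0.787 to 5.19 CPM in day 2 EXP and 0.0898 to 0.547 CPM in day 2 CTRL, with 1 of 2 tested called higher and Cxcr2 at 0 in both arms. Their part in these values was not tested.

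**Figure D4:**
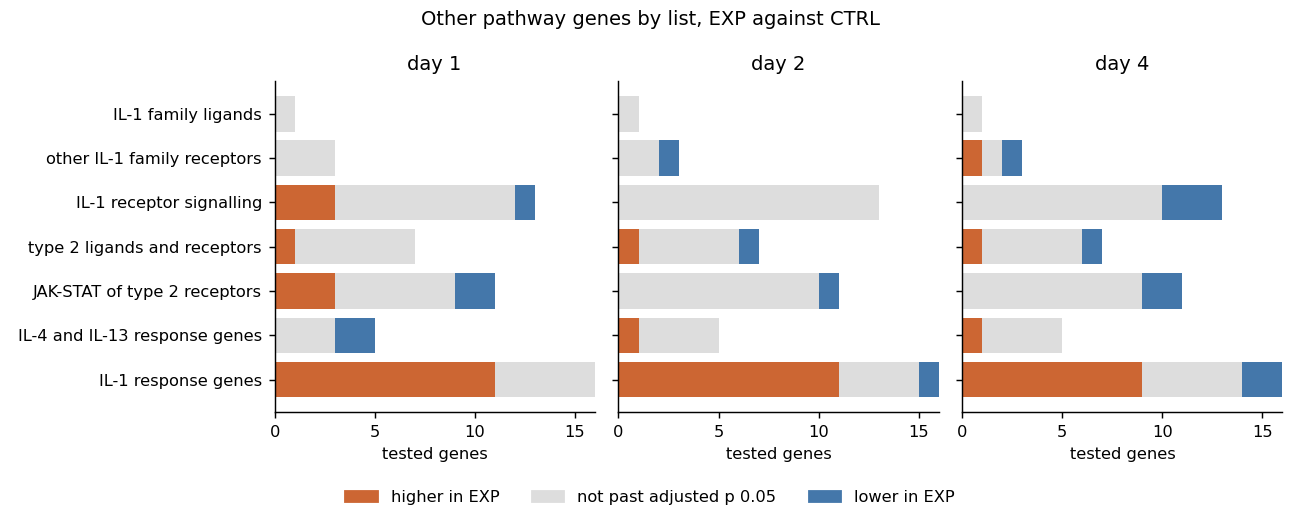
Number of tested genes per pathway list (horizontal) called higher in EXP, called lower or not past an adjusted p of 0.05 on each day, with 1 bar per list. The IL-1 response genes show 11, 11 and 9 of 16 higher, and the lists for IL-1 receptor signalling and JAK-STAT show 3 higher on day 1.

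On the type 2 side, 1 of 7 tested ligand and receptor genes was higher on each day, 0 were lower on day 1 (3 of the 7 had an unadjusted p under 0.05), and 1 was lower on days 2 and 4. For this and the next lists, the share of all tested genes called higher was 13.9%, 7.72% and 12.8% on days 1, 2 and 4. The share called lower was 14.7%, 5.71% and 9.66%. Osmr, the oncostatin M receptor chain shared with the IL-31 receptor, was 0.79 higher on the log2 scale on day 1 (adjusted p = 0.00418) and 0.99 on day 2 (adjusted p = 0.00785). Il17rb, the IL-25 receptor, fell by 2.47 on day 2 (adjusted p = 0.0343), a call lost in 5 of 15 alternative settings. Of 11 JAK-STAT genes, 3 were higher and 2 lower on day 1, 1 was lower on day 2 and 2 on day 4. Jak2 was 1.51 higher on day 1 (adjusted p = 8.22e-04). Socs3, a feedback inhibitor, fell by 1.30 on day 1 (adjusted p = 9.43e-04, kept in all 19 alternative settings) and by 1.00 on day 2 (adjusted p = 0.0409). The day 2 call of Socs3 was lost on library totals without TMM, without the filter on low counts and without any day 2 library other than EXP replicate 2. Socs1, another feedback inhibitor, fell by 3.30 on day 4 (adjusted p = 0.00726). It stood at 13.1, 41.2, 138 and 215 CPM in CTRL and at 7.59, 8.95 and 14.4 CPM in EXP. That call was lost in 4 of 17 settings (replicate block, voom, day 4 alone and the low side of the split), with log2 fold changes of -3.67 to -1.40. Stat6, the factor activated by IL-4 and IL-13, had log2 fold changes of -0.27, -0.23 and -0.16 (adjusted p = 0.142, 0.405 and 0.482). Of 5 tested IL-4 and IL-13 response genes, 2 were lower on day 1 and 1 was higher on days 2 and 4. Postn, encoding the matrix protein periostin, was lower on day 1 (log2 fold change -1.42, adjusted p = 0.00914) and higher on day 2 (2.58, adjusted p = 0.00238) and day 4 (1.44, adjusted p = 0.0236, lost in 8 of 17 settings). Retnla was at 0.940 ± 1.25 CPM in day 1 CTRL (SD, n = 4) and at most 1 count in day 1 EXP (adjusted p = 0.00843). That call was lost in 3 of 15 alternative settings.

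The genes closest to each member in pattern were sought among 9821 tested genes whose mean was 5 CPM or more, by Pearson correlation of log2 CPM over the 22 libraries, which share the distance between arms. For Il33 they were Nek6, Cxcl1 and Timp1, each at 0.96, and for Il1rl1 they were Tes (0.94), Csgalnact1 (0.93) and Car4 (0.90). Il1r1 was closest to Alpl (0.95), Acsl4 (0.94) and Il13ra1 (0.92), and Il13ra1 to Alpl (0.95), Il1r1 (0.92) and Hmces (0.91). Il1r1 and Il13ra1 were therefore among each other's 3 nearest genes, and after group means were removed their correlation was 0.76. Tslp and Il13ra2 shared Efemp2 as their nearest gene (0.86 each), and their own within-group correlation was 0.08. Il1rap (Topors, 0.83), Il4ra (Rsbn1, 0.81) and Il1rn (Tnfaip1, 0.70) had looser neighbours.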

How the data were processed

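Per the labels' protocols, live CD34+ PDGFRα+ cells lacking CD31, CD45, CD117 and EpCAM were sorted, RNA was extracted with a micro-scale kit, and ultra-low-input libraries were read as 150-base pairs on an Illumina platform. The authors deposited raw read counts per gene for 22 libraries. The submitters' processing notes name Trimmomatic and the build mm39, and the aligner, counter, annotation and strandedness are not given in the sources used here. GENCODE M21 named 52081 of the 55414 identifiers and gave exon lengths, and no gene coordinates are printed because its build differs.

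The count model was edgeR 4.0.16 under R 4.3.3. The filterByExpr filter used a minimum count of 10, and libraries were scaled by TMM and fitted with robust glmQLFit on a mean per group over all 22 libraries (16 residual degrees of freedom), and glmQLFTest p-values were adjusted by Benjamini-Hochberg over 17554 genes. Log2 CPM used a prior count of 2. Group sums of markers use TMM-scaled CPM. On simulated data (day 1, 17137 genes) the recovery at 2-fold was 35% and at 4-fold 71.7%, and 3 of 109 calls were false. The simulation changed 100 genes at each fold and had no library split, while 5017 genes were called on day 1 in the data. These rates therefore need not carry over to the data.

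The 9 genes and all lists were chosen with earlier results of these data known. From 7 pathway lists (77 genes, all matched), the called gene with the largest absolute log2 fold change per list and day is named, with Il1a, Il1b, Il1r2, Il4, Il13, Crlf2, Il7r, Il2rg, Stat6 and Myd88 whatever their values, and the 3 genes most like each member. Other genes named with values were chosen after their values were seen. Alternatives were DESeq2 1.42.0, DESeq2 size factors, library totals without TMM, no filter, at least 1 CPM in 3 libraries, limma 3.58.1 voom with quality weights, a replicate block, the library split, 1 day only, and each library left out.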

Additional observations from a re-analysis of the deposited data

Results flagged for a closer look

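In 6 of 27 groups of 4 or 5 libraries, 1 library lay far from the rest by Dixon's ratio, where chance gives about 1 in 20, or 1.35 groups. Il33 in EXP replicate 2 of day 1 was 1377 CPM against 236 to 371 CPM in the other 4, and Tslp in the same library was 3.43 CPM against 0.859 to 1.33 CPM. Il33 in CTRL replicate 4 of day 4 was 31.9 CPM against 12.0 to 15.3 CPM. Il1rl1 in CTRL replicate 4 of day 1 was 18.1 CPM against 88.2 to 101 CPM, and that library is the only day 1 control among the low-side libraries of the split. Il1r1 in CTRL replicate 3 of day 4 was 142 CPM against 251 to 257 CPM. Il1rn in CTRL replicate 2 of day 4 was 0.557 CPM (13 counts), and the other 3 controls had 0.

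The EXP effect on Il1rl1 differed between days by the joint interaction test (edgeR, adjusted p = 0.00581), with log2 fold changes of 1.60, 5.69 and 5.70 on days 1, 2 and 4. All 22 omissions of a library kept the call, with adjusted p from 0.00271 to 0.0157, and it was lost with the replicate number as a block (adjusted p = 0.0590).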

How the results depend on the processing

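Il33 kept its calls on all 3 days, and Il1rl1 on days 2 and 4, in every alternative and every omission of a library. Numbers of the 9 genes called on days 1, 2 and 4 stayed within 1.5 times of 4, 4 and 6. The replicate numbers did not pair the libraries (correlations of same-numbered deviations -0.07 to 0.16). With a replicate block, 0 of the 9 had an effect that differed between days (1 without it; Il1rl1 adjusted p = 0.0590, within 1.45e-06 to 0.0590 over 8 settings), 0 changed over days within EXP (2 without it), and Il1rl1 on day 1 and Il13ra2 on day 4 were lost. Under voom these numbers were 2 and 4, and 1 gene changed over days within CTRL, as also under DESeq2 and on library totals without TMM, where the count was otherwise 0. Omitting libraries gave 1 to 3 genes with an effect that differed between days (3 without EXP replicate 3 of day 4, 2 without EXP replicate 2 of day 1). It gave 1 to 3 changing within EXP (1 without EXP replicate 2 of day 4) and 0 to 1 within CTRL (1 without CTRL replicate 4 of day 1).

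The sign of Il1rap on day 1 was opposite on library totals without TMM (0.17), with the library split as covariate (0.0204) and without any of 5 libraries (range over omissions -0.17 to 0.11; 0.05 and 0.11 without CTRL replicates 2 and 3, 0.05, 0.06 and 0.01 without EXP replicates 2, 3 and 4). That of Il13ra2 on day 1 was opposite within the high side of the split (-0.32). The cause was not tested. Il1r1 on day 4 was also lost under voom (0.68) and with day 4 alone (0.83), and Il1rap on day 4 with the split as covariate (-0.75), with day 4 alone (-0.80) and within the low side (-0.90). Il1rl1 on day 1 was lost without the filter (1.59) and with day 1 alone (1.60). Tslp on day 2 passed under DESeq2, with day 2 alone and on library totals (2.00, 2.00 and 2.49), Il13ra2 on day 2 on library totals (3.52) and under voom (4.27), and Il1rn on day 4 under voom.

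Library totals without TMM moved the median of all genes by 0.21, 0.49 and 0.36 on the log2 scale on days 1, 2 and 4, and the share of calls that were higher from 48.7% to 66.2%, from 57.5% to 90.5% and from 57.0% to 80.8%. Over all genes, 5017 calls on day 1 became 2403 within the high side of the split. The 2359 on day 2 became 4567 under voom, 4631 on library totals and 891 to 2177 over omissions (891 without EXP replicate 1). The 3943 on day 4 became 1128 with day 4 alone, 1368 within the low side and 1633 to 5011 over omissions. The 1549 that differed between days became 401 with the block, 2590 under DESeq2 and 898 to 2572 over omissions. The 2502 within EXP became 1389 with the block and 1367 to 3415 over omissions, and the 51 within CTRL became 0 with the block, 29 with the split, 82 with the stricter filter, 163 on library totals, 515 under DESeq2, 603 under voom and 5 to 92 over omissions.

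Depth limits Il1rn, Il13ra2 in controls, Il1b, Il4 and Il7r, whose counts lie near 3.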

Other observations

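The day 4 EXP libraries differed from each other in these genes. Replicate 1 had the highest values of that group for Il1rl1 (1499.9 CPM), Il1r1 (552), Il4ra (730.1), Il13ra1 (247), Il13ra2 (16.6), Il1rn (1.18), Il18r1 (6.14) and Il1a (13.3). Replicate 2 had the highest Il33 (769) and Tslp (30.8) and the lowest Il1rap (93.4) and Il4ra (231). Replicate 3 had the lowest Il33 (299), Il1rl1 (479), Tslp (1.43) and Il13ra2 (0.714), and its fibroblast marker sum of 280987 CPM was the highest of the 3.

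Il1rl2 and Irak3, chosen after their values were seen, did not pass the test on any day. Il1rl2, the IL-36 receptor, had log2 fold changes of 0.11, 0.04 and 0.36 on days 1, 2 and 4 (edgeR, adjusted p = 0.789, 0.961 and 0.423). Irak3, a brake on IL-1 receptor signalling, had 0.30, 0.51 and 0.64 (adjusted p = 0.413, 0.306 and 0.118).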
